A study of Mus musculus with 6 samples.

Results

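The 7 genes described here encode transcription factors that act in the development of type 2 conventional dendritic cells (cDC2): Irf4, Zeb2, Klf4, Relb, Rela, Irf2 and Prdm1. They were chosen by name, for what is known of their roles, but with earlier results of these data known. Each was read from the probe set on the array annotated with that gene symbol alone. Each gene had 1 such probe set, so the group is 7 of the 19938 genes measured. Gene expression was measured on 6 Affymetrix arrays hybridised with RNA from dendritic cells that were sorted from wild-type mouse spleen. There were 2 arrays each of CD24+CD172a+ cDC2, of CD24-CD172a+ cDC2 and of CD24+ type 1 conventional dendritic cells (cDC1). All groups were wild type, with no treatment named, and neither the age nor the number of mice, nor whether replicate arrays stand for different animals, is given in the sources used here. P-values therefore measure the spread between these arrays, which may be technical.

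Conventional dendritic cells take up antigen and present it to T cells. cDC1, which require IRF8, are specialised in presenting antigen from dead or infected cells to CD8 T cells, while cDC2 mostly prime CD4 T cells. Interferon regulatory factor 4 (IRF4) binds DNA with the ETS factor PU.1 or with BATF and JUN proteins, and it is used in cDC2 for survival, migration and antigen presentation. ZEB2 is a zinc finger repressor that favours cDC2 over cDC1, and KLF4 is a Krüppel-like factor needed by a subset of IRF4-positive cDC2. RELB and RELA are subunits of NF-kB, IRF2 restrains responses to interferon, and Blimp-1, the product of Prdm1, is a repressor that ends differentiation programmes in several immune cells. Mice that lack Relb or Irf2 have fewer splenic cDC2.

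The labels were first set against defining markers. Sirpa, which encodes CD172a, had log2 intensities of 10.01 and 10.27 in the CD24+CD172a+ cDC2 arrays, 10.18 and 10.20 in the CD24-CD172a+ cDC2 arrays, and 4.97 and 5.39 in the cDC1 arrays. Cd24a, which encodes CD24, had 10.94 and 10.82 in the CD24+CD172a+ cDC2 arrays, 8.68 and 8.97 in the CD24-CD172a+ cDC2 arrays, and 11.83 and 11.66 in the cDC1 arrays. Xcr1, a chemokine receptor of cDC1, had 4.79 and 5.45 in the CD24+CD172a+ cDC2 arrays, 5.65 and 6.07 in the CD24-CD172a+ cDC2 arrays, and 10.71 in both cDC1 arrays. Of 14 cDC1 markers, CD24+CD172a+ cDC2 had 14 and CD24-CD172a+ cDC2 had 13 called lower than cDC1, and of 14 cDC2 markers they had 12 and 13 called higher. The exception in both was the cDC2 marker Clec12a, called lower, at 7.79 and 8.07 in the CD24+CD172a+ cDC2 arrays, 7.38 and 7.70 in the CD24-CD172a+ cDC2 arrays, and 9.62 and 9.75 in the cDC1 arrays. Apart from Clec12a, the called markers of both lists followed the sort labels. Array medians ran from 29.5 to 30.6 intensity units, and replicate arrays correlated at 0.992 to 0.993 across genes, which are not independent replicates. Below, levels are log2 intensities after the authors' RMA normalisation, differences are on the log2 scale with the standard error of limma, and a gene is called when its limma p adjusted by the Benjamini-Hochberg method over all 19938 genes is under 0.05. In bulk RNA of a sort, fewer cells of a type and less RNA per cell cannot be told apart.

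The promoters of the genes are shown as the DNA next to the start of transcription whose output the arrays measure. RefSeq (GRCm38.p6) held promoter windows for 6 of the 7 genes, with 4 starts for Zeb2. Each window holds 250 bases before and 50 after the start, printed 5′ to 3′ on the strand of the gene. Irf4, Zeb2 and Prdm1 are shown because they differed most between cDC2 and cDC1, and Irf2 because it differed least. The Prdm1 start lies inside the span that RefSeq gives for the gene, chr10:44437174-44528558. The windows are chr13:30748983-30749282 (Irf4, plus strand), chr2:45117393-45117692 (the outermost Zeb2 start, minus strand), chr10:44458699-44458998 (Prdm1, minus strand) and chr8:46739495-46739794 (Irf2, plus strand). Capitals mark matches to the motifs named after them.
Irf4: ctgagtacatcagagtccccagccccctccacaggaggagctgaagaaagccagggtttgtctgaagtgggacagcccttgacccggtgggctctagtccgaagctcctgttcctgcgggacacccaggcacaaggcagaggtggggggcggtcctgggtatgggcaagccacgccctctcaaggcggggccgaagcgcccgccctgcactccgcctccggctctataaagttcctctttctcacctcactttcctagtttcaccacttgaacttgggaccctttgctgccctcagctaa
Zeb2: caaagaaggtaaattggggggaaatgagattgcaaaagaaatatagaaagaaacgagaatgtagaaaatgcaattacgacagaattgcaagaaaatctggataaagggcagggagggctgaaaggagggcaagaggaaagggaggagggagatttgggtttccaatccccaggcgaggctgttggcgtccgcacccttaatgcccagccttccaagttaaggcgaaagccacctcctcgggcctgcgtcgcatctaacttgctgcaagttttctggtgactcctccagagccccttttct
Prdm1: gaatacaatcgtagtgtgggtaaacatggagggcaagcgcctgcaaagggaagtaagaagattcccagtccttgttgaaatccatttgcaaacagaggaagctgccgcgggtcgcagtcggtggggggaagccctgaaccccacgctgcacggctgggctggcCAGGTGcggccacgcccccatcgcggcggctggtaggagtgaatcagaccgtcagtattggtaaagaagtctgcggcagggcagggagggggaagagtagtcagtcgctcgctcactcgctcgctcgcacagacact
Irf2: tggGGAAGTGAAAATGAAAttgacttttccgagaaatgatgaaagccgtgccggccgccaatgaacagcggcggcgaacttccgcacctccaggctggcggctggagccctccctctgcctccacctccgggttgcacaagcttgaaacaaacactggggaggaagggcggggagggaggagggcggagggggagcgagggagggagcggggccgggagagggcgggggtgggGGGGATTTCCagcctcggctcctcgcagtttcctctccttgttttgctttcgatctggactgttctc

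Both strands were searched for the IRF tandem (GAAA, any 2 bases, GAAA), the ETS-IRF composite (GGAA, any 2 bases, GAAA), the Blimp-1 core GTGAAAG, the ZEB E-box CAGGTG, the KLF motif GGGTGTGG, the GC box GGGGCGGGG, the NF-kB consensus, and a stricter NF-kB motif (GGGA, any 2 bases, TTCC) that lies within that consensus. The Irf2 window held the ETS-IRF composite at positions -247 to -238 from the start and the IRF tandem at -241 to -232, which overlap, and an NF-kB consensus match at -17 to -8. Of all 32851 promoter windows, 2.72% held the ETS-IRF composite, 3.44% the IRF tandem and 8.46% the NF-kB consensus. The Prdm1 window held the ZEB E-box at -87 to -82, which 20.2% of all windows hold. The GC box, present in 11.4% of windows, occurred 3 times in the Klf4 window, once in the Rela window and once at the innermost Zeb2 start. The windows of Irf4 and of the other 3 Zeb2 starts, the outermost included, held no match. The Blimp-1 core (4.24% of windows), the KLF motif (3.56%) and the stricter NF-kB motif (1.47%) matched no window of the 6 genes. These are matches of letters in short windows, and the arrays do not measure binding.

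Against cDC1, each of the 7 genes had a higher mean in both cDC2 populations, and in both comparisons the arrays of the compared groups did not overlap for 7 of 7 genes. Among all genes, arrays did not overlap in 52% for CD24+CD172a+ cDC2 against cDC1, and the share was 52.4% for CD24-CD172a+ cDC2 against cDC1, a share against which the 7 of 7 should be read. In CD24+CD172a+ cDC2, 5 of 7 genes were called higher than in cDC1, where 13.6% of all genes were called, 7.11% higher and 6.52% lower. For CD24-CD172a+ cDC2, 6 of 7 were called higher than in cDC1, where 15.7% of all genes were called, 6.83% higher and 8.91% lower. None was called lower in either. The 7 genes were chosen as cDC2 factors with earlier results of these data known, so these counts are not an independent test. The median difference over the 7 genes was 0.81 for CD24+CD172a+ cDC2 (-0.03 over all genes) and 1.17 for CD24-CD172a+ cDC2 (0.00 over all genes). The 2 comparisons share the cDC1 arrays. The calls of Irf4, Zeb2 and Prdm1 were kept in 4 of 4 fits that left out a compared array, in both comparisons, and those of Klf4, Relb and Rela were not.

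**Figure D1:**
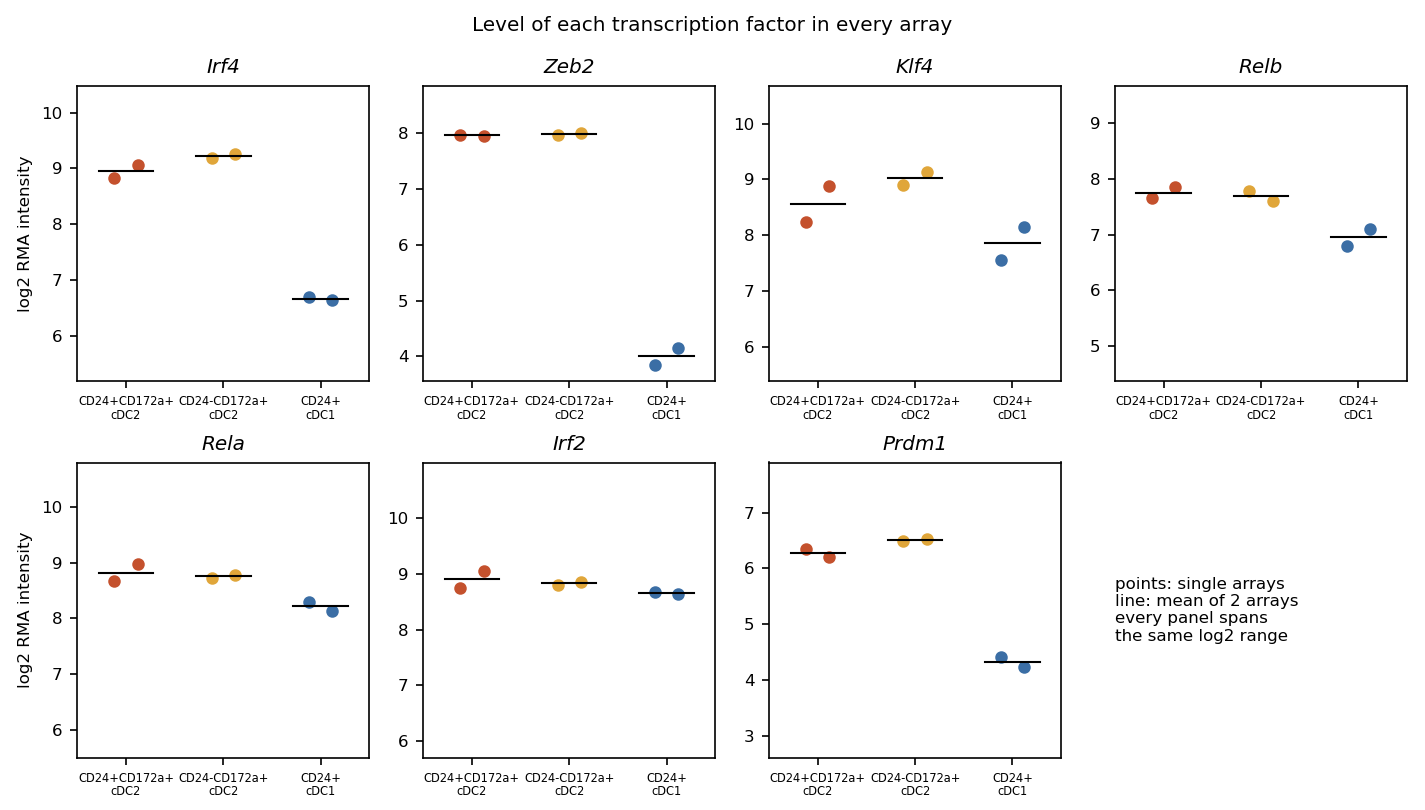
Log2 RMA intensity of the 7 genes in each of the 6 arrays (points), with the mean of the 2 arrays of each population as a line; panels have different levels but the same span. Zeb2 runs from 7.96 to 8.0 in the 4 cDC2 arrays and lies at 3.84 and 4.16 in the cDC1 arrays, while the Irf2 points of all populations lie between 8.65 and 9.05.

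Zeb2 had the widest separation of the 7. Its log2 level was 7.97 and 7.96 in the CD24+CD172a+ cDC2 arrays, 7.97 and 8.0 in the CD24-CD172a+ cDC2 arrays, and 3.84 and 4.16 in the cDC1 arrays. The 4 cDC2 arrays were nearly level with each other, and both cDC1 arrays lay far below them. Zeb2 was 15.6-fold higher in CD24+CD172a+ cDC2 than in cDC1 (difference 3.97 ± 0.14, limma adjusted p = 3.23e-08) and 15.9-fold higher in CD24-CD172a+ cDC2 than in cDC1 (3.99 ± 0.14, limma adjusted p = 2.95e-08). Only 0.176% of genes had a larger absolute difference between CD24+CD172a+ cDC2 and cDC1. The cDC1 level lies close to the arrays' 25th percentile, which averaged 3.72, and background was not measured, so the fold is uncertain and may be a lower bound. Across alternative processing choices the difference from cDC1 went down to 3.05 for CD24+CD172a+ cDC2 and 3.07 for CD24-CD172a+ cDC2. Between the cDC2 populations Zeb2 differed by -0.02 (95% confidence interval -0.33 to 0.29, limma adjusted p = 0.967).

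Irf4, the factor that sets most cDC2 apart from cDC1 by its level, was called higher in both cDC2 populations. Its log2 level was 8.83 and 9.07 in the CD24+CD172a+ cDC2 arrays, 9.19 and 9.26 in the CD24-CD172a+ cDC2 arrays, and 6.69 and 6.64 in the cDC1 arrays. The cDC1 arrays were lowest, and the CD24-CD172a+ arrays lay above both CD24+CD172a+ arrays. Irf4 was 4.86-fold higher in CD24+CD172a+ cDC2 than in cDC1 (2.28 ± 0.13, limma adjusted p = 1.11e-06) and 5.90-fold higher in CD24-CD172a+ cDC2 than in cDC1 (2.56 ± 0.13, limma adjusted p = 4.53e-07). The CD24+CD172a+ and CD24-CD172a+ cells differed by -0.28 (95% confidence interval -0.58 to 0.02), which was not called (limma adjusted p = 0.385).

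Prdm1, which encodes Blimp-1, followed the same order at a lower signal. Its log2 level was 6.34 and 6.2 in the CD24+CD172a+ cDC2 arrays, 6.50 and 6.52 in the CD24-CD172a+ cDC2 arrays, and 4.40 and 4.23 in the cDC1 arrays. Prdm1 was 3.88-fold higher in CD24+CD172a+ cDC2 than in cDC1 (1.96 ± 0.13, limma adjusted p = 2.92e-06) and 4.58-fold higher in CD24-CD172a+ cDC2 than in cDC1 (2.2 ± 0.13, limma adjusted p = 1.16e-06). The cDC1 levels lay below the array medians of 4.88 to 4.93, and background was not measured, so the folds are uncertain. Across alternative processing choices these differences went down to 1.38 and 1.58. The cDC2 populations differed by -0.24 (95% confidence interval -0.53 to 0.05, limma adjusted p = 0.456). Plasma cells also express Prdm1 strongly. Of 7 plasma cell markers 1 was called higher in CD24+CD172a+ cDC2 than in cDC1 and 1 lower in CD24-CD172a+ cDC2 than in cDC1. Of all genes, 13.6% and 15.7% were called in those comparisons. The summed intensity of those 7 was 311 to 324 in CD24+CD172a+ cDC2, 349 to 385 in CD24-CD172a+ cDC2, and 363 to 391 in cDC1. The marker called higher, Jchain, had 4.51 and 4.68 in the CD24+CD172a+ cDC2 arrays, 3.25 and 3.15 in the CD24-CD172a+ cDC2 arrays, and 3.62 and 3.33 in the cDC1 arrays. The part of plasma cells in the level of Prdm1 was not tested.

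Klf4, which a subset of cDC2 needs, had the widest gap between replicates of the 7 genes, 0.63 in CD24+CD172a+ cDC2. Its log2 level was 8.24 and 8.87 in the CD24+CD172a+ cDC2 arrays, 8.90 and 9.14 in the CD24-CD172a+ cDC2 arrays, and 7.56 and 8.14 in the cDC1 arrays. The lower CD24+CD172a+ array lay just above the higher cDC1 array. Klf4 was 2.25-fold higher in CD24-CD172a+ cDC2 than in cDC1 (1.17 ± 0.23, limma adjusted p = 0.00575), a call that ended without cDC1 replicate 1 (0.88, limma adjusted p = 0.0590). In CD24+CD172a+ cDC2 it differed from cDC1 by 0.71 ± 0.23, which was not called (limma adjusted p = 0.0759). Of the CD24+CD172a+ arrays, leaving out replicate 2 gave 0.39 and leaving out replicate 1 gave 1.02 (limma adjusted p = 0.460 and 0.0350). Of the cDC1 arrays, leaving out replicate 1 gave 0.41 and leaving out replicate 2 gave 1.0 (limma adjusted p = 0.446 and 0.0341). The gene was also called when only genes above the median were tested (limma adjusted p = 0.0471). Between the cDC2 populations Klf4 differed by -0.46 (95% confidence interval -0.98 to 0.05, limma adjusted p = 0.407).

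Relb and Rela, both subunits of NF-kB, were moderately higher in cDC2. RELB acts mostly in the branch of the pathway that lymphotoxin and CD40 trigger through the kinase NIK, and RELA in the branch that inflammatory signals trigger through the IKK complex. Relb had log2 levels of 7.65 and 7.86 in the CD24+CD172a+ cDC2 arrays, 7.78 and 7.61 in the CD24-CD172a+ cDC2 arrays, and 6.79 and 7.10 in the cDC1 arrays. All 4 cDC2 arrays lay above both cDC1 arrays, and the cDC2 populations overlapped. Relb was 1.75-fold higher in CD24+CD172a+ cDC2 than in cDC1 (0.81 ± 0.15, limma adjusted p = 0.00461) and 1.68-fold higher in CD24-CD172a+ cDC2 than in cDC1 (0.75 ± 0.15, limma adjusted p = 0.00676). Without cDC1 replicate 1 these calls ended (limma adjusted p = 0.0529 for CD24+CD172a+ cDC2 and 0.0733 for CD24-CD172a+ cDC2), and the first also ended without CD24+CD172a+ replicate 2 (limma adjusted p = 0.0560).

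Rela had log2 levels of 8.66 and 8.98 in the CD24+CD172a+ cDC2 arrays, 8.73 and 8.78 in the CD24-CD172a+ cDC2 arrays, and 8.30 and 8.14 in the cDC1 arrays. Again the cDC2 populations overlapped and the cDC1 arrays lay below them. Rela was 1.52-fold higher in CD24+CD172a+ cDC2 than in cDC1 (0.61 ± 0.15, limma adjusted p = 0.0182) and 1.45-fold higher in CD24-CD172a+ cDC2 than in cDC1 (0.54 ± 0.15, limma adjusted p = 0.0301). The first call ended without CD24+CD172a+ replicate 2 and without cDC1 replicate 2 (limma adjusted p = 0.154 and 0.128). The second ended in each of the 4 fits that left out an array it compares, with limma adjusted p of 0.0721 to 0.173 and differences of 0.46 to 0.62. Between the cDC2 populations Relb differed by 0.06 (95% confidence interval -0.28 to 0.40) and Rela by 0.07 (-0.25 to 0.39), and neither was called (limma adjusted p = 0.907 and 0.872).

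Irf2 was called in no comparison. Its log2 level was 8.75 and 9.05 in the CD24+CD172a+ cDC2 arrays, 8.80 and 8.86 in the CD24-CD172a+ cDC2 arrays, and 8.68 and 8.65 in the cDC1 arrays. The group means spanned 0.23, less than the gap of 0.31 between the CD24+CD172a+ replicates. The difference from cDC1 was 0.23 in CD24+CD172a+ cDC2 (95% confidence interval -0.08 to 0.55, limma adjusted p = 0.376) and 0.17 in CD24-CD172a+ cDC2 (-0.15 to 0.48, limma adjusted p = 0.543). From one cDC2 population to the other it was 0.07 (-0.24 to 0.38, limma adjusted p = 0.870).

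**Figure D2:**
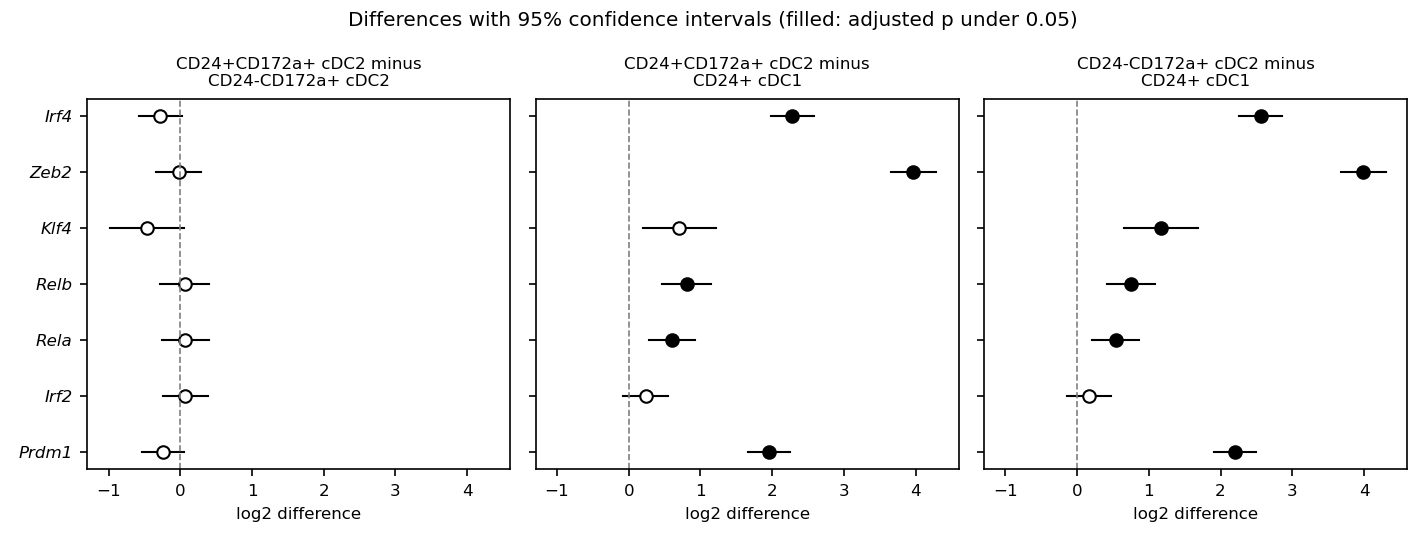
Log2 difference of each gene in the 3 comparisons, the first-named population minus the second, with 95% confidence intervals of limma as lines; filled points have an adjusted p under 0.05. All intervals of CD24+CD172a+ minus CD24-CD172a+ cDC2 include 0, while 5 genes are filled for CD24+CD172a+ cDC2 minus cDC1 and 6 for CD24-CD172a+ cDC2 minus cDC1, from Rela (0.61 and 0.54) to Zeb2 (3.97 and 3.99).

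None of the 7 genes was called between CD24+CD172a+ and CD24-CD172a+ cDC2 by limma, where 1.46% of all genes were called, 0.808% higher and 0.652% lower. A count of 0 among 7 is close to that share and does not set the genes apart. At an unadjusted p under 0.05 the count was also 0 of 7, a threshold for which no share of all genes is given here. The 7 differences ran from -0.46 for Klf4 to 0.07 for Rela, and the median was -0.02 (-0.01 over all genes). For 4 genes, Irf4, Zeb2, Klf4 and Prdm1, both CD24+CD172a+ arrays lay below both CD24-CD172a+ arrays, a separation that 44.2% of all genes showed in one direction or the other. The intervals leave room for a Klf4 level up to 0.98 lower in CD24+CD172a+ cDC2 and an Irf4 level up to 0.58 lower. The order of group means was CD24-CD172a+ cDC2, CD24+CD172a+ cDC2, cDC1 for Irf4, Zeb2, Klf4 and Prdm1. For Relb, Rela and Irf2 the cDC2 populations stood the other way round, within their spread.

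Beyond Relb and Rela, many genes of the NF-kB pathway were higher in cDC2 than in cDC1. The list holds 19 measured genes of the pathway besides Relb and Rela: other subunits, IkB proteins, kinases, adaptors and receptors. Of these, 10 were higher in CD24+CD172a+ cDC2 than in cDC1 and none lower, and 9 were higher in CD24-CD172a+ cDC2 than in cDC1 and none lower; at an unadjusted p under 0.05, 1 gene was lower in the first comparison and 0 in the second. Of all genes, 7.11% were called higher and 6.52% lower for CD24+CD172a+ cDC2 against cDC1. For CD24-CD172a+ cDC2 against cDC1 these shares were 6.83% and 8.91%. The list's median difference from cDC1 was 0.52 for CD24+CD172a+ cDC2 and 0.45 for CD24-CD172a+ cDC2, against medians of -0.03 and 0.00 over all genes. With a compared array left out it ran from 0.40 to 0.59 for CD24+CD172a+ cDC2 and from 0.35 to 0.61 for CD24-CD172a+ cDC2. Not all calls of the list were kept without a compared array. Under the alternatives that left out no compared array, 10 or 11 genes were higher in CD24+CD172a+ cDC2 and 8 to 13 in CD24-CD172a+ cDC2. The 3 largest differences in CD24+CD172a+ cDC2 were those of genes for proteins of the IkB type, Bcl3, Nfkbiz and Nfkbie. Bcl3, an atypical IkB protein that binds p50 and p52, had log2 levels of 8.09 and 8.27 in the CD24+CD172a+ cDC2 arrays, 7.50 and 7.08 in the CD24-CD172a+ cDC2 arrays, and 5.48 and 5.71 in the cDC1 arrays. Each CD24+CD172a+ array was above each CD24-CD172a+ array, and each of those was above each cDC1 array.

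Bcl3 rose by 2.58 ± 0.17 in CD24+CD172a+ cDC2 over cDC1 (limma adjusted p = 2.13e-06) and by 1.69 ± 0.17 in CD24-CD172a+ cDC2 over cDC1 (limma adjusted p = 5.17e-05). It was also the 1 gene of the 19 called between the cDC2 populations, 0.89 ± 0.17 higher in CD24+CD172a+ cDC2 (limma adjusted p = 0.0345), and 1 of 4 fits without a compared array and 9 of 11 other alternatives kept that call. Nfkbiz, which encodes the nuclear protein IkB-zeta, rose by 1.58 ± 0.15 in CD24+CD172a+ cDC2 and by 2.08 ± 0.15 in CD24-CD172a+ cDC2 over cDC1. Nfkbie, which encodes the cytoplasmic inhibitor IkB-epsilon, rose by 1.33 ± 0.15 and 1.37 ± 0.15 in those comparisons. Cyld, a deubiquitinase that restrains the pathway, rose by 1.24 ± 0.12 in CD24+CD172a+ cDC2, and Birc2, a ubiquitin ligase that degrades NIK, by 1.30 ± 0.17 in CD24-CD172a+ cDC2. Nfkb2, whose product p52 pairs with RELB, differed from cDC1 by 0.21 ± 0.13 in CD24+CD172a+ cDC2 and by 0.36 ± 0.13 in CD24-CD172a+ cDC2 (limma adjusted p = 0.365 and 0.0889). Ltbr, the lymphotoxin beta receptor upstream of RELB, differed by -0.30 ± 0.13 and -0.14 ± 0.13 (limma adjusted p = 0.192 and 0.568).

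**Figure D3:**
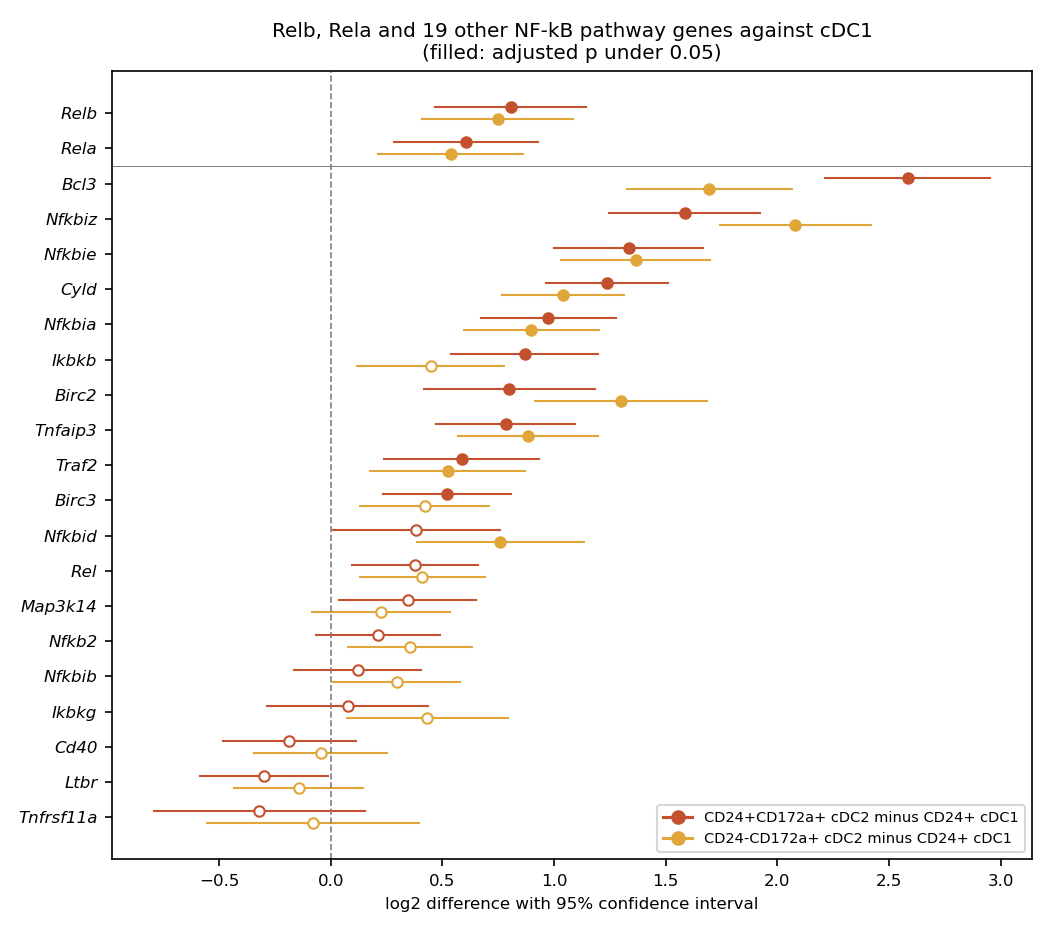
Log2 difference from cDC1 of Relb, Rela and the 19 other measured NF-kB pathway genes, in CD24+CD172a+ cDC2 (red) and CD24-CD172a+ cDC2 (yellow), with 95% confidence intervals of limma; filled points have an adjusted p under 0.05. Bcl3, Nfkbiz and Nfkbie lie furthest right, from 1.33 to 2.58, and the receptor genes Cd40, Ltbr and Tnfrsf11a lie at or below 0 and are open.

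Of the 6 other IRF genes measured, Irf8 had by far the largest difference, in the opposite direction to Irf4. Irf8, which cDC1 require, had log2 levels of 5.72 and 6.17 in the CD24+CD172a+ cDC2 arrays, 6.31 and 6.52 in the CD24-CD172a+ cDC2 arrays, and 8.49 and 8.99 in the cDC1 arrays. It fell by 2.79 ± 0.20 in CD24+CD172a+ cDC2 relative to cDC1, and it fell by 2.33 ± 0.20 in the CD24-CD172a+ cells (limma adjusted p = 4.2e-06 and 1.65e-05). Irf9, a subunit of the factor that interferon activates, rose by 0.52 ± 0.13 in CD24+CD172a+ cDC2 over cDC1 (limma adjusted p = 0.0273), which no fit without a compared array kept; the other 4 IRF genes were not called against cDC1. Between the cDC2 populations none of the 6 was called by limma (2 at an unadjusted p under 0.05), and the smallest p belonged to Irf8 (-0.47 ± 0.20) and Irf7 (-0.41 ± 0.18).

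A list of 15 genes holds ETS factors, AP-1 factors of the BATF, JUN and FOS families, and the IRF2-binding protein family. Of these, 3 were higher and 2 lower in CD24+CD172a+ cDC2 than in cDC1. In CD24-CD172a+ cDC2, 3 were higher and none lower than in cDC1 (1 lower at an unadjusted p under 0.05). The shares of all genes called in these comparisons were 13.6% and 15.7%. Spib, an ETS factor related to PU.1, had log2 levels of 6.76 and 6.80 in the CD24+CD172a+ cDC2 arrays, 6.07 and 5.83 in the CD24-CD172a+ cDC2 arrays, and 4.49 and 4.83 in the cDC1 arrays. It was 2.12 ± 0.15 higher in CD24+CD172a+ cDC2 and 1.29 ± 0.15 higher in CD24-CD172a+ cDC2 than in cDC1, and 0.83 ± 0.15 higher in CD24+CD172a+ than in CD24-CD172a+ cDC2 (limma adjusted p = 0.0315, a call that ended in each of the 4 fits without a compared array). Jun, an AP-1 subunit, rose by 1.41 ± 0.14 and 1.42 ± 0.14 over cDC1 in CD24+CD172a+ and CD24-CD172a+ cDC2. Fosl2, another AP-1 subunit, rose by 0.44 ± 0.12 in each of them (limma adjusted p = 0.0396 and 0.0366), and neither call was kept in any of the 4 fits without a compared array. Batf3, the AP-1 factor that cDC1 need, and Batf2, its relative, differed by -0.52 ± 0.15 and -0.80 ± 0.20 in CD24+CD172a+ cDC2, and these calls were kept in 1 and 2 of 4 fits without a compared array, with neither kept without CD24+CD172a+ replicate 1. Spi1, which encodes PU.1, differed from cDC1 by -0.00 ± 0.13 and 0.10 ± 0.13 (limma adjusted p = 0.995 and 0.716).

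The list around ZEB2 holds Zeb1, the E proteins, their inhibitors of the ID family, and partners, 12 genes in all. Against cDC1, 2 were higher and 1 lower in CD24+CD172a+ cDC2, and 2 were higher and 2 lower in CD24-CD172a+ cDC2. Among all genes, 13.6% and 15.7% were called in those comparisons. Id2, an E protein inhibitor that cDC1 need and that ZEB2 is known to repress, had log2 levels of 10.23 and 10.10 in the CD24+CD172a+ cDC2 arrays, 10.72 and 10.94 in the CD24-CD172a+ cDC2 arrays, and 11.43 and 11.51 in the cDC1 arrays. The 3 populations stood in separate steps, whereas Zeb2 was level in the 2 cDC2 populations. Id2 fell by 1.31 ± 0.14 in CD24+CD172a+ cDC2 relative to cDC1, fell by 0.64 ± 0.14 in CD24-CD172a+ cDC2 relative to cDC1, and fell by 0.66 ± 0.14 in CD24+CD172a+ relative to CD24-CD172a+ cDC2 (limma adjusted p = 7.53e-05, 0.00818 and 0.0462). The last call was kept in 0 of 4 fits without a compared array, and the second in 2 of 4. The last also ended in 3 of 11 other alternatives. Id2 and Tcf4 were the 2 genes of the list called between the cDC2 populations.

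Tcf4, an E protein gene that plasmacytoid dendritic cells require, stepped the other way. Its log2 level was 7.83 and 7.71 in the CD24+CD172a+ cDC2 arrays, 6.79 and 6.93 in the CD24-CD172a+ cDC2 arrays, and 6.02 and 6.0 in the cDC1 arrays. It rose by 1.76 ± 0.13 in CD24+CD172a+ cDC2 and by 0.85 ± 0.13 in CD24-CD172a+ cDC2 over cDC1 (limma adjusted p = 5.23e-06 and 0.00103), and was 0.91 ± 0.13 higher in CD24+CD172a+ than in CD24-CD172a+ cDC2 (limma adjusted p = 0.00973, kept in 1 of 4 fits without a compared array). Tcf4 and Spib also stand among 12 measured plasmacytoid markers. Between the cDC2 populations 1.46% of all genes were called. Of the 12 markers, 5 were higher in CD24+CD172a+ than in CD24-CD172a+ cDC2 and none lower (1 at an unadjusted p under 0.05). Their summed intensity was 1068 to 1088 in CD24+CD172a+ cDC2, 763 to 772 in CD24-CD172a+ cDC2, and 913 to 961 in cDC1, and the part of plasmacytoid cells in the levels of Tcf4 and Spib was not tested. Id3 rose by 0.55 ± 0.13 and 0.87 ± 0.13 over cDC1 in CD24+CD172a+ and CD24-CD172a+ cDC2, and Tcf12, an E protein gene, fell by 0.61 ± 0.13 in CD24-CD172a+ cDC2. The signal of Id3 was low, at 4.19 and 4.21 in the cDC1 arrays, below the array medians of 4.88 to 4.93. Without a compared array, the Id3 call was kept in 0 of 4 fits for CD24+CD172a+ cDC2 (limma adjusted p up to 0.107) and in 4 of 4 for CD24-CD172a+ cDC2, and the Tcf12 call in 3 of 4. Nfil3, which represses Zeb2 in dendritic cell progenitors, differed from cDC1 by 0.20 ± 0.12 and 0.02 ± 0.12, and Zeb1, the relative of Zeb2, by -0.20 ± 0.19 and -0.21 ± 0.19, and none of these was called (limma adjusted p = 0.406 and 0.950 for Nfil3, and 0.626 and 0.569 for Zeb1).

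**Figure D4:**
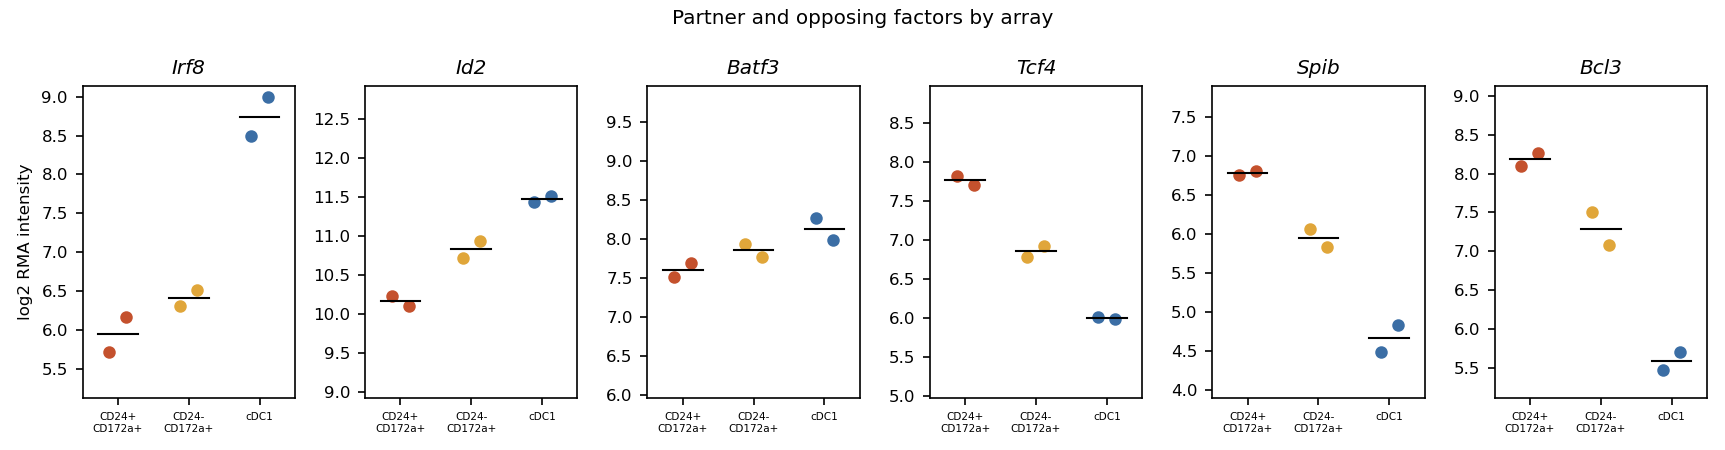
Log2 RMA intensity of Irf8, Id2, Batf3, Tcf4, Spib and Bcl3 in each array (points) with group means (lines), from left to right CD24+CD172a+ cDC2, CD24-CD172a+ cDC2 and cDC1; the panels have different levels but the same span. Tcf4, Spib and Bcl3 step down from left to right and Id2 steps up, with no overlap between neighbouring populations in these 4 genes. Of all genes, 44.2% show no overlap between the cDC2 populations and 52.4% none between CD24-CD172a+ cDC2 and cDC1.

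Of the 16 other Krüppel-like factor genes, 3 were higher and 1 lower than in cDC1 in each cDC2 population, and none was called between the cDC2 populations by limma (1 higher and 3 lower at an unadjusted p under 0.05). Among all genes, 13.6% were called for CD24+CD172a+ cDC2 against cDC1, 15.7% for CD24-CD172a+ cDC2 against cDC1, and 1.46% between the cDC2 populations. Klf10, which transforming growth factor beta induces, rose by 1.10 ± 0.13 and 0.93 ± 0.13 over cDC1 in CD24+CD172a+ and CD24-CD172a+ cDC2. Klf3, a repressor, fell by 1.26 ± 0.14 in the CD24+CD172a+ cells and fell by 0.85 ± 0.14 in the CD24-CD172a+ cells. Klf2, a close relative of Klf4 that keeps lymphocytes quiescent, rose by 0.64 ± 0.13 in CD24-CD172a+ cDC2 (limma adjusted p = 0.00778) and differed by 0.17 ± 0.13 in CD24+CD172a+ cDC2 (limma adjusted p = 0.543), and the cDC2 populations differed by -0.47 ± 0.13 (limma adjusted p = 0.136). Klf17, at a signal near the bottom of the arrays, had the next smallest p between them (-0.54 ± 0.17, limma adjusted p = 0.168). Klf13 rose by 0.65 ± 0.13 and 0.52 ± 0.13 in CD24+CD172a+ and CD24-CD172a+ cDC2, and Klf7 by 0.46 ± 0.13 in CD24+CD172a+ cDC2. Without a compared array, the call of Klf2 was kept in 2 of 4 fits, those of Klf13 in 2 and 1, and that of Klf7 in 0. The 3 higher genes became 1 without cDC1 replicate 2 or CD24+CD172a+ replicate 1 for CD24+CD172a+ cDC2, and 1 without CD24-CD172a+ replicate 1 for CD24-CD172a+ cDC2.

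Of 11 relatives of Prdm1 in the PRDM family, 1 was higher in CD24+CD172a+ cDC2 than in cDC1, Prdm4 (0.51 ± 0.14, limma adjusted p = 0.0296, kept in 1 of 4 fits without a compared array). None was called by limma in CD24-CD172a+ cDC2 against cDC1 (2 at an unadjusted p under 0.05) or between the cDC2 populations (0 at an unadjusted p under 0.05). These counts are near the shares of all genes called, 13.6%, 15.7% and 1.46%, and show nothing about the family. The smallest p in these comparisons belonged to Prdm15 (-0.38 ± 0.15) and Prdm8 (0.29 ± 0.13) against cDC1, and to Prdm2 (0.30 ± 0.14) and Prdm11 (-0.41 ± 0.20) between the cDC2 populations. Of 7 genes of the network around Blimp-1, 1 was higher in CD24+CD172a+ cDC2 than in cDC1 and 2 in CD24-CD172a+ cDC2 than in cDC1, with none lower (1 at an unadjusted p under 0.05 in each), and 1 was lower in CD24+CD172a+ than in CD24-CD172a+ cDC2. Bach2, a repressor that opposes Blimp-1 in lymphocytes, rose by 1.06 ± 0.16 in CD24+CD172a+ cDC2 over cDC1 (limma adjusted p = 0.00089), at low levels of 5.20 and 4.88 in CD24+CD172a+ cDC2 and 3.93 and 4.02 in cDC1.

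Myc, which Blimp-1 represses in B cells, rose by 0.93 ± 0.20 in CD24-CD172a+ cDC2 over cDC1 (limma adjusted p = 0.00813). Il6, a cytokine gene that dendritic cells without Blimp-1 overproduce, had log2 levels of 4.31 and 4.80 in the CD24+CD172a+ cDC2 arrays, 5.42 and 5.60 in the CD24-CD172a+ cDC2 arrays, and 4.44 and 4.80 in the cDC1 arrays. It rose by 0.89 ± 0.18 in CD24-CD172a+ cDC2 over cDC1 (limma adjusted p = 0.0075), and fell by 0.96 ± 0.18 in CD24+CD172a+ relative to CD24-CD172a+ cDC2 (limma adjusted p = 0.0382). In CD24+CD172a+ cDC2 and cDC1 the Il6 levels lay below the array medians of 4.88 to 4.93. Background was not measured, so the size of these Il6 differences is uncertain. The calls of Myc and Il6 against cDC1 were kept in 2 of 4 fits without a compared array, and that of Il6 between the cDC2 populations in 0, with 8 of 10 other alternatives keeping it. Ciita, the regulator of MHC class II genes that Blimp-1 represses in plasma cells, differed from cDC1 by -0.07 ± 0.14 in CD24+CD172a+ cDC2 and by -0.42 ± 0.14 in CD24-CD172a+ cDC2 (limma adjusted p = 0.841 and 0.0755).

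Of 28 other transcription factors of dendritic cells, which include Irf8, Id2, Tcf4 and Batf3 above, 7 were higher and 4 lower in CD24+CD172a+ cDC2 than in cDC1, and 5 were higher and 4 lower in CD24-CD172a+ cDC2 than in cDC1. Without 1 compared array these became 4 or 5 higher and 2 or 3 lower for CD24+CD172a+ cDC2 (4 higher without either cDC1 array or CD24+CD172a+ replicate 1, and 2 lower without either CD24+CD172a+ array). For CD24-CD172a+ cDC2 they became 2 or 3 higher and 1 to 3 lower (2 higher and 1 lower without CD24-CD172a+ replicate 1, 3 and 3 without its replicate 2, 2 and 2 without either cDC1 array). The median differences of the 28 were 0.07 and 0.10. Of all genes, 7.11% were called higher and 6.52% lower for CD24+CD172a+ cDC2 against cDC1. For CD24-CD172a+ cDC2 against cDC1 these shares were 6.83% and 8.91%. The list mixes factors that were lower in cDC2, such as Irf8 and Id2, with factors that were higher. Its medians are therefore not comparable with those of the 7 genes, which were chosen as cDC2 factors. Besides the genes given above, Tbx21, which encodes T-bet and marks a subset of cDC2, rose by 1.09 ± 0.15 and 0.95 ± 0.15 in CD24+CD172a+ and CD24-CD172a+ cDC2. Mycl, a MYC family factor of dendritic cells, fell by 0.82 ± 0.18 in CD24-CD172a+ cDC2 (limma adjusted p = 0.00914, kept in 2 of 4 fits without a compared array). Between the cDC2 populations, where 1.46% of all genes were called, 1 of the 28 was higher in CD24+CD172a+ cDC2, Tcf4, and 1 lower, Id2.

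For the 4 genes with a call and with group means at least 1 log2 unit apart, the genes most like them were sought. Likeness was the root mean square difference over the 6 arrays after each gene was centred on its own mean, among 18614 genes. Nearest to Irf4 were Cd300lf (0.0754), Lair1 (0.0822), Clec7a (0.107), Tcp11l2 (0.109) and Adgrg6 (0.117). Cd300lf and Lair1 are inhibitory receptors and Clec7a is Dectin-1, a receptor for fungal glucans. Nearest to Zeb2 were Cd209a (0.113), a C-type lectin of the DC-SIGN family, Mcemp1 (0.145), Adgre4 (0.199), St8sia6 (0.234) and Csf1r (0.238), the receptor for macrophage colony-stimulating factor. Nearest to Prdm1 were Cdk17 (0.0815), Ifitm1 (0.0957), Cd22 (0.108), Gngt2 (0.113) and Gpr183 (0.117), the oxysterol receptor EBI2 that guides cDC2 in the spleen. Nearest to Klf4 were Tspan2 (0.0863), Otulinl (0.137), Tagap (0.149), Smad7 (0.153) and Anxa3 (0.161).

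**Figure D5:**
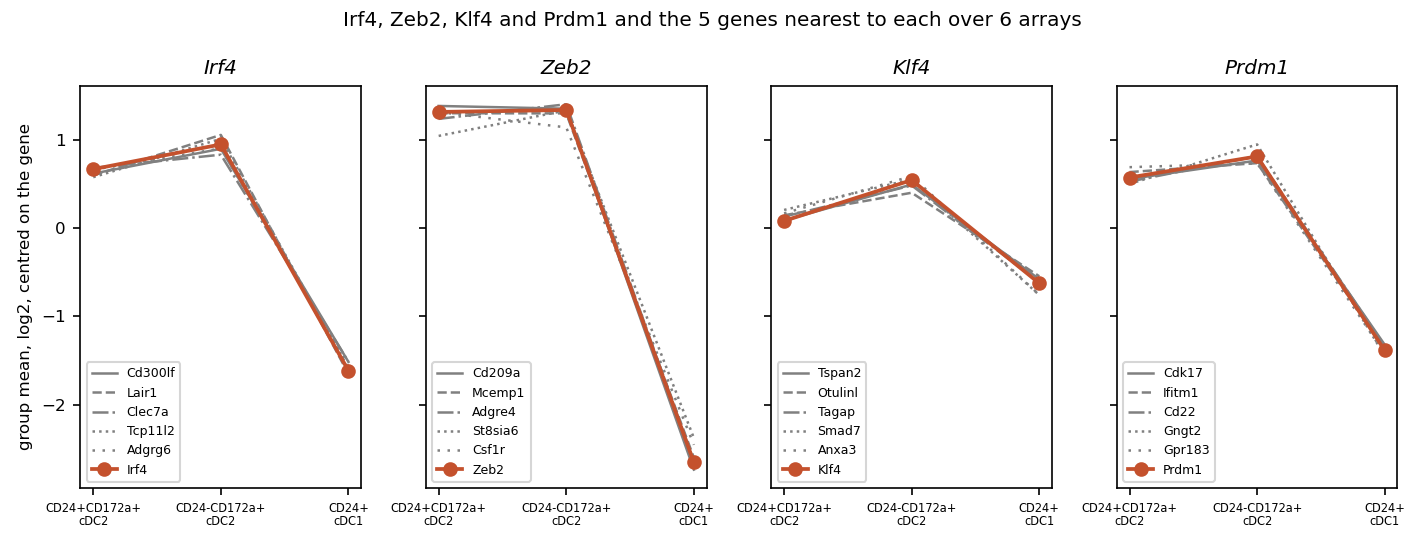
Group means of Irf4, Zeb2, Klf4 and Prdm1 (red) and of the 5 genes nearest to each (grey), on the log2 scale and centred on the mean of the 3 groups, for CD24+CD172a+ cDC2, CD24-CD172a+ cDC2 and cDC1 from left to right. The means of Irf4, Klf4 and Prdm1 are highest in CD24-CD172a+ cDC2, though none of these genes was called between the cDC2 populations. Zeb2 is level across both cDC2 populations, and Klf4 has the smallest span, 1.17.

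Markers of cells that also express these factors were set beside the comparisons. Of all genes, 13.6% were called for CD24+CD172a+ cDC2 against cDC1 and 15.7% for CD24-CD172a+ cDC2 against cDC1. Between the cDC2 populations the share was 1.46%. Among 15 genes of monocytes and macrophages, 7 had lower levels in CD24+CD172a+ than in CD24-CD172a+ cDC2 and none was higher (0 at an unadjusted p under 0.05). Their summed intensity was 4353 to 4877 in CD24+CD172a+ cDC2, 6762 to 6887 in CD24-CD172a+ cDC2, and 6655 to 6766 in cDC1. Against cDC1, 3 of the 15 were higher and 5 lower in CD24+CD172a+ cDC2, while CD24-CD172a+ cDC2 had 6 higher and 3 lower, with medians of 0.02 and 0.45. Single genes of the list went different ways. Csf1r had 8.47 and 8.61 in the CD24+CD172a+ cDC2 arrays, 8.40 and 8.33 in the CD24-CD172a+ cDC2 arrays, and 4.90 and 4.64 in the cDC1 arrays, and Lyz2, which encodes lysozyme, had 10.05 and 10.35, then 11.26 and 11.32, then 11.67 and 11.56 in the same populations. The part of monocytes and macrophages in the levels of Zeb2, Irf4 and Klf4 was not tested. Of 11 B cell markers, 5 were higher and 1 lower in CD24+CD172a+ cDC2 than in cDC1, and 4 were higher and 1 lower in CD24-CD172a+ cDC2 than in cDC1, with summed intensities of 483 to 506 in CD24+CD172a+ cDC2, 547 to 605 in CD24-CD172a+ cDC2, and 359 to 394 in cDC1. B cells express Irf4 and Relb, and the part of B cells in their levels was not tested. None of 10 T cell markers was called in CD24+CD172a+ cDC2 against cDC1 by limma (1 at an unadjusted p under 0.05), and 1 was higher in CD24-CD172a+ cDC2. Of 13 neutrophil markers 4 were higher in CD24+CD172a+ cDC2 than in cDC1 and 3 in CD24-CD172a+ cDC2 than in cDC1, with summed intensities of 378 to 410 in CD24+CD172a+ cDC2, 290 to 307 in CD24-CD172a+ cDC2, and 254 to 266 in cDC1. Limma called none of 8 NK cell and 4 erythroid markers in any comparison (1 NK cell marker lower at an unadjusted p under 0.05 in CD24+CD172a+ cDC2 against each other population). Of 8 markers of mature, migratory dendritic cells, a list that includes Relb, 3 were higher and 2 lower in CD24+CD172a+ cDC2 than in cDC1 and 3 were higher and 1 lower in CD24-CD172a+ cDC2, with summed intensities of 5645 to 6188 in CD24+CD172a+ cDC2, 8537 to 9531 in CD24-CD172a+ cDC2, and 3592 to 4861 in cDC1; their part in the level of Relb was not tested.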

How the data were processed

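Total RNA of sorted cells was extracted on columns and labelled with a WT Pico kit of Affymetrix, per the labels' protocols. The authors' deposited values are intensities on a linear scale, made in Affymetrix Expression Console with RMA, per the submitters' processing notes; versions and a genome build are not given in the sources used here. RMA aligns the distributions of all arrays, so a difference is relative to the other genes. Detection calls and scan dates were not used here, and the small number of arrays limits the precision.

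Log2 was taken, and of 28853 probe sets the 21789 with 1 gene symbol were used (1621 had several and 5443 none). For 999 genes with several probe sets the brightest was kept, which left 19938 genes, unfiltered. Titles gave the groups and replicate numbers. All 6 arrays entered 1 fit in limma 3.58.1 (R 4.3.3, lmFit and eBayes), with 3 residual and 7.31 prior degrees of freedom, and the 3 pairs of groups were compared. The fit was tested on simulated data. The members, gene lists and tests were chosen with earlier results of these data known. Of 235 listed genes, 214 were measured. Named are the 7 genes; of each list, in each comparison, up to 4 called genes with the largest difference, or else the 2 of lowest p, plus up to 2 more; and the 5 nearest genes to each gene called with group means at least 1 apart, without predicted genes or clone names. Marker lists are given by counts and sums. Alternatives covered probe sets, dim genes, scaling, an offset of 16, the variance model, the groups fitted, the replicate number and each array left out. Figures were drawn with matplotlib 3.10.9.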

Additional observations from a re-analysis of the deposited data

How the results depend on the processing

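Over 17 alternatives, 343 of 357 values of the 7 genes stayed on their side of the threshold with the same direction where called, 10 lost a call, 4 gained one and 0 called values reversed. The lost calls, of Klf4, Relb and Rela, all came from leaving out an array, and the gained ones were all of Klf4 in CD24+CD172a+ cDC2 against cDC1. Counts over all genes moved more. Between CD24+CD172a+ and CD24-CD172a+ cDC2, 291 genes were called, against 437 with genes above the median alone, 464 with an intensity trend and robust variance, 187 with only these groups fitted, and 20 to 187 with 1 array left out (20 without CD24+CD172a+ replicate 1, 44 without its replicate 2, 98 and 76 without CD24-CD172a+ replicates 1 and 2, 187 without either cDC1 array). Of the 291, 55.3% were higher in CD24+CD172a+ cDC2, against 46.5% after quantile normalisation and 44.1% after cyclic loess. For CD24+CD172a+ cDC2 against cDC1 the count was 2718, and 1781 to 2769 with 1 array left out. For CD24-CD172a+ cDC2 against cDC1 it was 3137, and 1922 to 2839 with 1 array left out, lowest without cDC1 replicate 1. The cause of these shifts was not tested. The labels do not say whether arrays with the same replicate number were paired. Their deviations correlated at 0.0242 to 0.0838 over 2 numbers, which cannot settle it. With the replicate number as a block, 411, 2918 and 3323 genes were called in the 3 comparisons, and Klf4 in CD24+CD172a+ cDC2 against cDC1 was called (0.71, limma adjusted p = 0.00627). With 2 arrays a group, small differences between the cDC2 populations were not detectable, and a low signal such as that of Zeb2 in cDC1 could not be told from background.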
